A study of Mus musculus with 36 samples.

Results

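A set of 10 target genes of the ERK pathway was followed. Egr1, Fos, Fosl1 and Jun are early transcription factor genes. Dusp4, Dusp5, Dusp6, Spry2, Spry4 and Etv4 are ERK feedback and output genes. All 10 were taken by symbol from a table of 36856 symbols, and all were among the 16065 genes with enough counts to test. The genes were chosen from earlier results of these data, in which Dusp6 and Egr1 fell when thapsigargin was given to PERK -/- cells. That comparison, and every comparison that uses the PERK -/- thapsigargin or the PERK -/- DMSO libraries, is therefore given as values with no test. The other comparisons use neither group, and those are given with their test.

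The samples were bulk RNA-seq libraries of mouse embryonic fibroblasts, either WT or PERK -/- (without the kinase PERK, encoded by Eif2ak3). Cells of each genotype received 1 of 6 treatments: DMSO (the vehicle), thapsigargin, BtdCPU, BtdCPU with thapsigargin, halofuginone, or halofuginone with thapsigargin. This gave 12 groups of 3 libraries. The labels give no dose, time, clone number or batch, and they do not say whether replicates were separate cultures, so every p-value measures the spread between these libraries, which may be technical. WT and PERK -/- libraries come from different cells, so an effect of PERK cannot be told apart from other differences between those cells. A lower mRNA level in a bulk library can come from less mRNA per cell or from fewer cells that express the gene, and these cannot be told apart here.

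ERK is the last kinase of the Ras, Raf and MEK relay that growth factor receptors switch on. Active ERK phosphorylates ternary complex factors bound with SRF at promoters, and the immediate early genes are transcribed within minutes without new protein synthesis. Among the later targets are inhibitors of the same pathway: dual-specificity phosphatases that remove the activating phosphates from ERK, and Sprouty proteins that act between the receptor and Raf. Because these feedback mRNAs follow ERK output, they are often read as a proxy for it, but ERK phosphorylation was not measured in these libraries. Thapsigargin blocks the calcium pump of the endoplasmic reticulum and causes stress there, which PERK senses. BtdCPU activates HRI and halofuginone activates GCN2, which phosphorylate the same translation factor as PERK.

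Promoter sequences are shown for 3 members whose responses to halofuginone in WT cells differed: Dusp5 and Fos, which rose, and Dusp6, which did not pass the test. RefSeq sequences were available for 5 of the 10 genes (Fos, Jun, Dusp5, Dusp6 and Spry2), on build GRCm38.p6. Shown here are the 250 bases before the annotated start of Dusp5, Fos and Dusp6, 5′ to 3′ on the strand of the gene, with motif matches in capitals. The Dusp5 window lies on the plus strand at chr19:53528895-53529144. Capitals mark 2 adjoining CArG boxes (the SRF site) that start at -82 and -72, counted from the first base of the gene as 0. They also mark a match to TGACGT on the opposite strand that starts at -56. The Fos window lies on the plus strand at chr12:85473640-85473889, and the capitals mark a TGACGT match at -66. The Dusp6 window lies on the plus strand at chr10:99262981-99263230 and holds none of the motifs searched, so it has no capitals.
Dusp5: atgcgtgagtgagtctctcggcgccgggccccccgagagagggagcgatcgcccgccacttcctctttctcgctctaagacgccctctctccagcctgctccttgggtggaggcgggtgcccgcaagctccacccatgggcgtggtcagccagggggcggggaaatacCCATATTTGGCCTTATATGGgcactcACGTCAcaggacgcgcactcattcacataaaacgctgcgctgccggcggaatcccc
Fos: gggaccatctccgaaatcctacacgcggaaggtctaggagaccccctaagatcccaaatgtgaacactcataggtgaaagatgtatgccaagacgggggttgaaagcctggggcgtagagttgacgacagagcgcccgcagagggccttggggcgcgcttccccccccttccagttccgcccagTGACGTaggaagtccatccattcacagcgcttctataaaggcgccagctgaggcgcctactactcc
Dusp6: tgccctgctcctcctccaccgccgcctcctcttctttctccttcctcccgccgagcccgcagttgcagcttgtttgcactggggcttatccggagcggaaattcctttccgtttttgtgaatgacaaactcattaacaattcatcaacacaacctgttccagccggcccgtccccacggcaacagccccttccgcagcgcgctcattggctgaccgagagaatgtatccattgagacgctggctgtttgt
The search covered both strands of the 300 bases from 250 before to 50 after each start, for the CArG box, CCGGAA (ETS), TGACGT (part of a CRE), TGANTCA (AP-1) and GCGNGGGCG (EGR). Of 32851 promoters of that length, 1.63% held a CArG box, 14.9% CCGGAA, 7.51% TGACGT, 7.81% TGANTCA and 5.55% GCGNGGGCG. Jun and Spry2 also rose with halofuginone in WT cells. Jun held none of these motifs, and Spry2 held only CCGGAA, at 33, downstream of its start. Sites more than 250 bases before a start were not searched. Whether any match bears on a response was not tested. A match is a string of letters and not a measured binding site.

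Libraries held 32454257 to 37178107 counts each. Eif2ak3 was lower in every PERK -/- library than in any WT library of the same treatment, with 279 to 1337 counts remaining in PERK -/- cells. Fibroblast markers summed to between 13800 and 39000 CPM (edgeR's count value scaled to library size), and Lum, one of them, was at 0.648 to 14.6 CPM in WT libraries and at 0 to 0.33 CPM in PERK -/- ones. The 5 epithelial markers summed to 17.1 to 23.8 CPM in WT halofuginone libraries and 8.14 to 10.8 CPM in WT halofuginone with thapsigargin libraries. In WT DMSO libraries they summed to 0.171 to 0.422 CPM, and in WT thapsigargin libraries to 1.05 to 4.7 CPM. Most of the WT halofuginone sum was Krt8 (9.47 to 14.3 CPM) and Krt18 (6.35 to 8.62 CPM), while Epcam was at 0 in 24 of the 36 libraries and at most 0.169 CPM in any. In PERK -/- cells the sum was 3.27 to 4.8 CPM with halofuginone and 1.39 to 1.96 CPM with DMSO. The 4 endothelial markers summed to 3.22 to 5.33 CPM in WT halofuginone libraries and 0.248 to 0.899 CPM in WT DMSO ones. The part of other cells in the halofuginone results was not tested.

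Thapsigargin lowered most of these genes in WT cells. Compared with DMSO, 7 of the 10 fell and none rose, at an edgeR adjusted p below 0.05, where 22.7% of all tested genes were called lower and 24.9% higher. The median log2 fold change of the 10 was -1.04, beside 0.02 over all tested genes. Both kinds of gene were among the 7: Egr1 and Jun, all 3 phosphatase genes, Spry2 and Etv4.

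Egr1 encodes a zinc finger transcription factor that is among the fastest to respond to growth factors. It was at 57.1, 42.9 and 44.6 CPM in the WT DMSO libraries and at 11.8, 10 and 8.44 CPM in the WT thapsigargin libraries. Every treated library was below every control library, and the fall was 4.77-fold (log2 fold change -2.25, SE 0.223, edgeR adjusted p = 8.76e-10). Dusp6 encodes a cytoplasmic phosphatase that acts on ERK with high selectivity. It went from 68.4, 60.1 and 66.1 CPM to 20.0, 14.0 and 17.9 CPM, a 3.75-fold fall (log2 fold change -1.91, SE 0.174, edgeR adjusted p = 1.57e-10). The groups did not overlap for this gene either.

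The nuclear phosphatase genes fell by a smaller factor. Dusp4 was at 30.3, 29.5 and 37.1 CPM with DMSO and at 12.1, 13.3 and 15.1 CPM with thapsigargin (log2 fold change -1.26, SE 0.211, edgeR adjusted p = 1.05e-05). Dusp5, whose product binds ERK in the nucleus, was at 57.7, 44.0 and 57.4 CPM and then at 27.1, 20.4 and 20.5 CPM (log2 fold change -1.23, SE 0.162, edgeR adjusted p = 1.92e-07). Jun, a subunit of the AP-1 transcription factor, fell 2.15-fold (log2 fold change -1.10, SE 0.130). Spry2, a Sprouty inhibitor of receptor signalling, fell 1.97-fold and Etv4, an ETS transcription factor gene of the PEA3 group that ERK and FGF signals induce, fell 1.91-fold. The groups of these 5 genes did not overlap. Fosl1, the gene of the AP-1 subunit FRA1, was at 108, 74.1 and 132 CPM with DMSO and at 108, 78.8 and 96.7 CPM with thapsigargin. These values overlapped, and the log2 fold change was -0.15 (SE 0.167, edgeR adjusted p = 0.478). Fos (log2 fold change -0.86, SE 0.411, edgeR adjusted p = 0.0862) and Spry4 (-0.43, SE 0.362, edgeR adjusted p = 0.340) overlapped too, and both were near 1 CPM. Fos passed without WT thapsigargin replicate 3 (log2 fold change -1.33, edgeR adjusted p = 0.0233) and with no filter on low counts (-0.89, edgeR adjusted p = 0.0148).

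**Figure D1:**
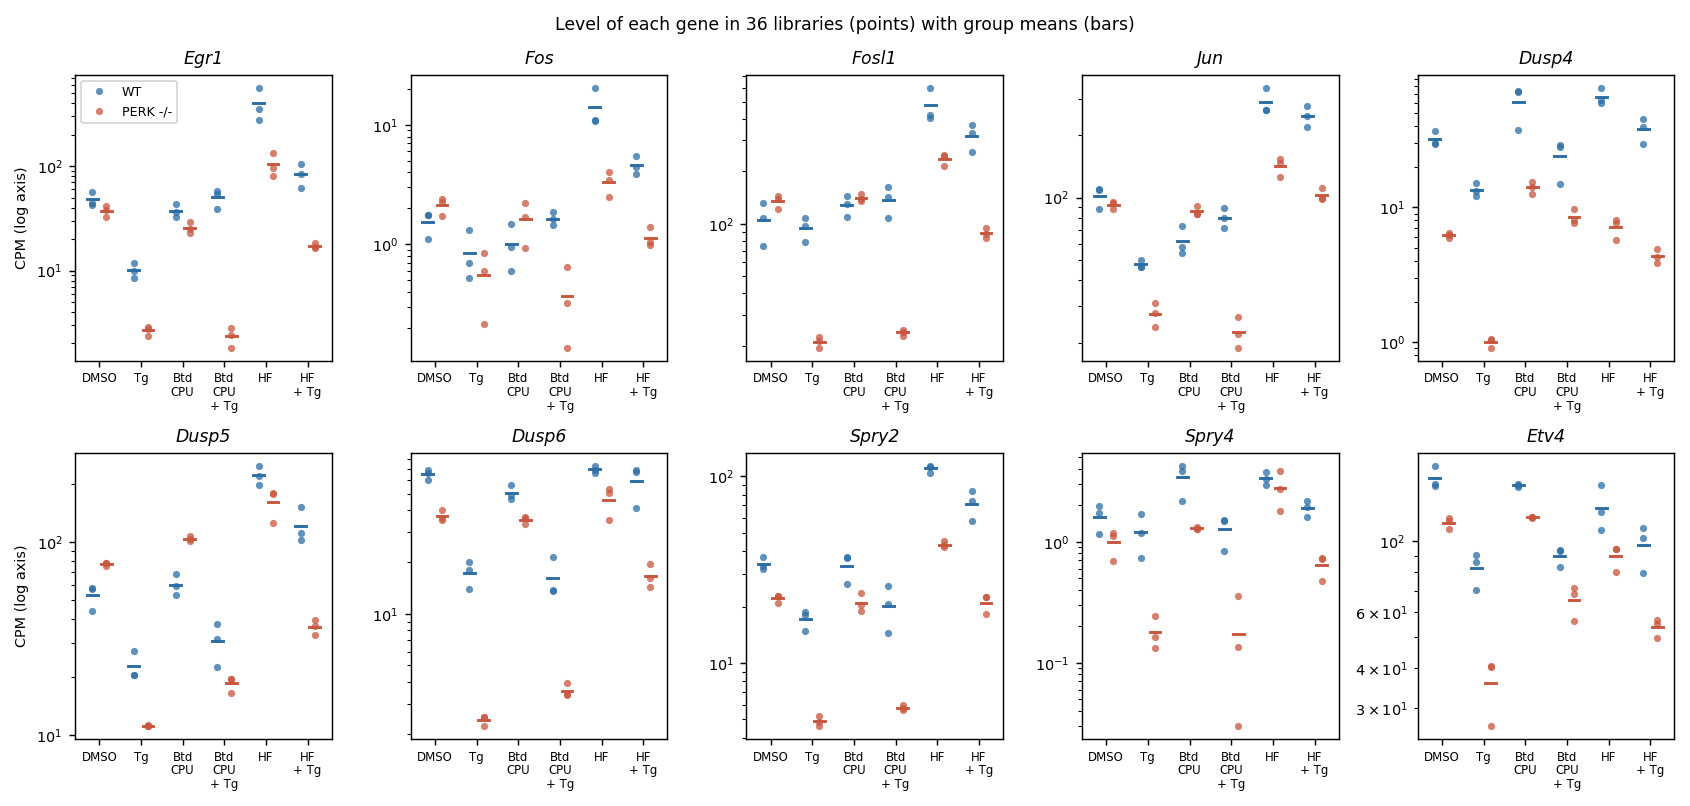
Level of each gene in all 36 libraries, in CPM on a log axis, by treatment; blue points are WT, red points are PERK -/-, and the horizontal bars are means of 3 libraries. In Fosl1, the WT thapsigargin libraries lie among the WT DMSO ones, while the PERK -/- thapsigargin libraries lie at 19.5 to 22.6 CPM, below every PERK -/- DMSO library.

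The fall with thapsigargin reached all 10 genes in PERK -/- cells. Since Dusp6 and Egr1 in this comparison led to the choice of genes, the values are a description. In each of the 10, every PERK -/- thapsigargin library was below every PERK -/- DMSO library, and the median log2 fold change was -2.54. Over all tested genes the median was 0.05, and edgeR called 12.7% lower and 15.2% higher. A call is not the same measure as groups that do not overlap, which were counted for the 10 genes only. Dusp6 went from 40.1, 35.2 and 36.3 CPM to 2.22, 2.51 and 2.51 CPM, and Egr1 from 38, 32.8 and 41.6 CPM to 2.87, 2.37 and 2.75 CPM. These 2 genes had the lowest log2 fold changes of the 10, -3.94 (SE 0.202) and -3.81 (SE 0.250). The smallest falls were those of Etv4 (-1.67, SE 0.139), Jun (-1.75, SE 0.133) and Fos (-1.94, SE 0.422). Fosl1 was at 139, 122 and 144 CPM with DMSO and at 22.6, 21.3 and 19.5 CPM with thapsigargin (log2 fold change -2.67, SE 0.179), where the WT groups overlapped. Dusp4 reached 1.06, 1.04 and 0.908 CPM, from 5.95, 6.23 and 6.51 CPM. Spry4 reached 0.244, 0.164 and 0.133 CPM, which are 9, 6 and 5 counts. The response of PERK -/- cells minus that of WT cells was below 0 for all 10, from -0.64 (SE 0.183) for Jun to -2.52 (SE 0.241) for Fosl1. Over all tested genes the median of this difference was 0.03, and edgeR called 18.6% below 0 and 19.5% above.

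The same treatment on top of BtdCPU gives a test in PERK -/- cells without the libraries that led to the choice of genes. The genes were chosen with earlier results of these data known, so this test is not fully independent of the choice. BtdCPU alone also differed little from DMSO in PERK -/- cells, with 3.59% of all tested genes called by edgeR. All 10 genes were lower in PERK -/- cells with BtdCPU and thapsigargin than with BtdCPU alone, each at an edgeR adjusted p below 0.05 and each with no overlap between the groups. Of all tested genes, edgeR called 7.48% lower and 9.34% higher. Overlap is not the same measure and was counted for the 10 genes only. The median log2 fold change of the 10 was -2.32, beside 0.00 over all genes.

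Egr1 was at 25.2, 23.1 and 29.2 CPM in PERK -/- BtdCPU libraries and at 1.82, 2.40 and 2.81 CPM once thapsigargin was added. The fall was 11-fold (log2 fold change -3.46, SE 0.252, edgeR adjusted p = 8.73e-12). Dusp6 went from 36, 36.5 and 33.5 CPM to 3.37, 3.40 and 3.95 CPM (log2 fold change -3.31, SE 0.193, edgeR adjusted p = 8.70e-14). For Egr1 these values overlapped those of PERK -/- cells with thapsigargin alone, and for Dusp6 each lay above them. Fosl1 fell from 138, 135 and 149 CPM to 22.9, 24.1 and 24.5 CPM (log2 fold change -2.56, SE 0.178), and Dusp5 from 107, 101 and 104 CPM to 19.5, 19.4 and 16.5 CPM (-2.50, SE 0.167). Jun fell by 1.93 and Spry2 by 1.87 on the log2 scale. Fos fell by 2.13 and Spry4 by 2.89 on that scale, but their treated libraries held few counts: 24, 5 and 12 for Fos and 5, 13 and 1 for Spry4. Etv4 (-0.87, SE 0.135) and Dusp4 (-0.73, SE 0.214) fell least. The Dusp4 call (edgeR adjusted p = 0.0155) was lost without PERK -/- BtdCPU replicate 1 (log2 fold change -0.66), PERK -/- BtdCPU with thapsigargin replicate 2 (-0.67) or replicate 3 (-0.70), with edgeR adjusted p of 0.0637 to 0.0683.

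In WT cells given BtdCPU, thapsigargin lowered all 6 feedback and output genes and none of the 4 transcription factor genes. No groups of the 6 overlapped (Dusp6 -1.64, Spry4 -1.42, Dusp4 -1.34, Dusp5 -0.98, Etv4 -0.74 and Spry2 -0.71, as log2 fold changes). Overlap was not counted over all tested genes. Across all tested genes, 19.5% were called lower and 20.9% higher, so that 51.7% of calls were higher, or 65.4% when scaled by library size alone. Egr1 was at 32.7, 43.3 and 36.2 CPM with BtdCPU and at 57.8, 38.8 and 53.7 CPM with thapsigargin added, and the groups overlapped (log2 fold change 0.42, SE 0.209, edgeR adjusted p = 0.109). It passed when scaled by library size alone (0.53, edgeR adjusted p = 0.038) and with no filter on low counts (0.37, edgeR adjusted p = 0.0159). Jun was called higher (0.38, SE 0.129, edgeR adjusted p = 0.019), although its groups overlapped. That call was lost without WT BtdCPU replicate 1 (0.29) or 3 (0.33), and without WT BtdCPU with thapsigargin replicate 1 (0.34) or 3 (0.25), with edgeR adjusted p of 0.0635 to 0.168, and when the fit held only the compared groups (0.39, edgeR adjusted p = 0.071). Fosl1 had a log2 fold change of 0.11 (SE 0.166), which was -0.06 without WT BtdCPU with thapsigargin replicate 3, and Fos one of 0.70 (SE 0.403, edgeR adjusted p = 0.171).

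The difference between genotypes in this response was tested directly. The response of PERK -/- cells was below that of WT cells in 7 of the 10 genes, with edgeR adjusted p below 0.05, and above it in none, where 12.3% of all tested genes were called lower and 12.4% higher. Of those calls 50.1% were higher, or 31.4% when scaled by library size alone. The 4 transcription factor genes had the lowest values: Egr1 -3.88 (SE 0.326, edgeR adjusted p = 5.48e-10), Fos -2.83 (SE 0.607, edgeR adjusted p = 0.000851), Fosl1 -2.67 (SE 0.241, edgeR adjusted p = 2.04e-09) and Jun -2.31 (SE 0.185, edgeR adjusted p = 2.78e-10). Dusp6 (-1.66, SE 0.252), Dusp5 (-1.52, SE 0.226) and Spry2 (-1.16, SE 0.218) also passed. For Etv4 no difference was detected (-0.13, SE 0.190, edgeR adjusted p = 0.674). Dusp4 was the gene with a positive difference (0.60, SE 0.296, edgeR adjusted p = 0.141), which passed without WT BtdCPU replicate 2 (0.86, edgeR adjusted p = 0.0159) and with no filter on low counts (0.65, edgeR adjusted p = 0.0177). Spry4 (-1.48, SE 0.587, edgeR adjusted p = 0.0642) passed without WT BtdCPU with thapsigargin replicate 2 (-1.66, edgeR adjusted p = 0.0431) or PERK -/- BtdCPU with thapsigargin replicate 2 (-2.49, edgeR adjusted p = 0.00818). It also passed when scaled by library size alone (-1.63, edgeR adjusted p = 0.0359) and by DESeq2's Wald test (-1.51, adjusted p = 0.0351).

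**Figure D2:**
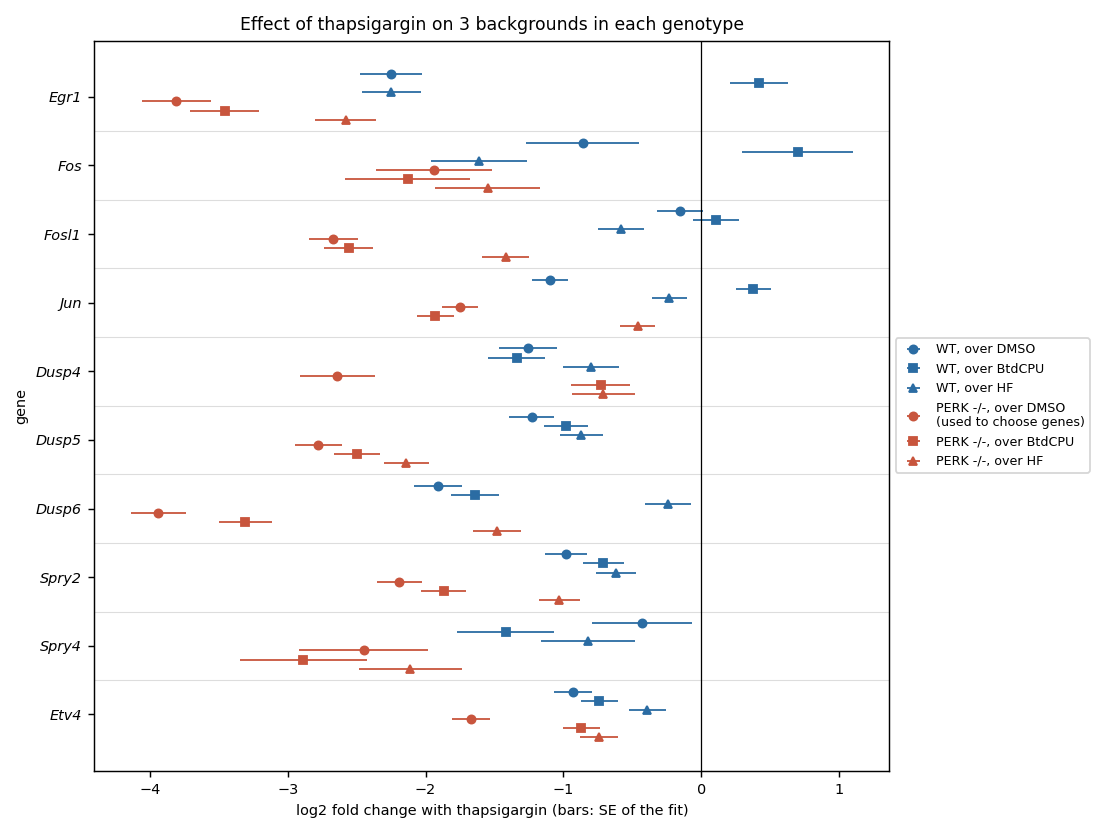
Log2 fold change with thapsigargin for each gene, over DMSO (circles), over BtdCPU (squares) and over halofuginone (triangles), in WT (blue) and PERK -/- (red) libraries; bars are the SE of the fit. Red marks lie left of 0 for all 10 genes. The blue squares of Fos (0.70), Egr1 (0.42), Jun (0.38) and Fosl1 (0.11) lie right of it. The red circles are the comparison used in choosing the genes.

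Thapsigargin on top of halofuginone gave the other test in PERK -/- cells without the libraries that led to the choice of genes. There, 9 of the 10 genes fell and none rose in PERK -/- cells (edgeR adjusted p below 0.05), beside 3.16% of all tested genes called lower and 3.27% higher. No groups overlapped for any of the 10, but overlap was counted for these genes only and is not the same measure as a call. The median log2 fold change was -1.45, beside 0.00 over all genes. Egr1 went from 134, 81.1 and 96.5 CPM to 18.5, 16.9 and 16.6 CPM (log2 fold change -2.58, SE 0.221, edgeR adjusted p = 3.85e-10). Dusp5 went from 177, 180 and 125 CPM to 39.5, 36.7 and 33.0 CPM (-2.14, SE 0.163, edgeR adjusted p = 2.62e-11). Dusp6 went from 50.2, 53.4 and 35.0 CPM to 19.4, 16.1 and 14.3 CPM (-1.48, SE 0.173, edgeR adjusted p = 2.48e-07), so that the treated libraries were well above the 2.22 to 2.51 CPM of thapsigargin alone. Spry4 fell by 2.11, Fosl1 by 1.42, Spry2 by 1.03 and Etv4 by 0.74 on the log2 scale. Fos fell by 1.55 (edgeR adjusted p = 0.00887), a call lost without PERK -/- halofuginone with thapsigargin replicate 3 (-1.47, edgeR adjusted p = 0.0506). Jun fell by 0.46 (edgeR adjusted p = 0.0217), a call lost without PERK -/- halofuginone replicate 1 (-0.41) or 2 (-0.46), or without PERK -/- halofuginone with thapsigargin replicate 1 (-0.44) or 2 (-0.45). Dusp4 had a log2 fold change of -0.71 (SE 0.227, edgeR adjusted p = 0.0553). It passed with no filter on low counts (edgeR adjusted p = 0.000459), by DESeq2's Wald test (adjusted p = 0.0233), when the fit held only the compared groups (edgeR adjusted p = 0.0254) and without PERK -/- halofuginone replicate 1 (-0.86, edgeR adjusted p = 0.035).

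In WT cells given halofuginone, thapsigargin lowered Egr1 and 5 others of the set. Egr1 went from 356, 277 and 567 CPM to 105, 61.7 and 85.0 CPM (log2 fold change -2.25, SE 0.214, edgeR adjusted p = 1.87e-09). Fos fell by 1.61, Dusp5 by 0.87, Dusp4 by 0.80, Spry2 by 0.62 and Fosl1 by 0.58 on the log2 scale, which made 6 of 10 lower and none higher, beside 5.83% of all tested genes lower and 8.13% higher. Higher calls were 58.3% of these, or 76.2% when scaled by library size alone. Dusp6 was at 72.6, 66.4 and 69.0 CPM with halofuginone and at 66.9, 41.5 and 68.3 CPM with thapsigargin added. The Dusp6 groups overlapped, and its log2 fold change was -0.24 (SE 0.166, edgeR adjusted p = 0.391). The Fosl1 call (edgeR adjusted p = 0.0161) was lost without WT halofuginone replicate 3 (-0.36) or WT halofuginone with thapsigargin replicate 2 (-0.44) and when the fit held only the compared groups (-0.57, edgeR adjusted p = 0.128), and the Dusp4 call without the latter library (-0.65, edgeR adjusted p = 0.0691). Etv4 (-0.39, edgeR adjusted p = 0.051) passed without WT halofuginone replicate 2 (-0.49) or WT halofuginone with thapsigargin replicate 3 (-0.48), with no filter on low counts (edgeR adjusted p = 0.0172) and by DESeq2's Wald test (-0.42, adjusted p = 0.0228). With the replicate number as a block, Etv4 (-0.39, edgeR adjusted p = 0.00151) and Spry4 (-0.83, edgeR adjusted p = 0.0223, against 0.112 without the block) passed as well, which made 8 of 10.

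Over halofuginone, the fall with thapsigargin differed between genotypes for the phosphatase genes Dusp5 and Dusp6, and for Fosl1 under some settings. The response of PERK -/- cells minus that of WT cells was -1.28 for Dusp5 (SE 0.222, edgeR adjusted p = 0.00176) and -1.24 for Dusp6 (SE 0.238, edgeR adjusted p = 0.00441), the 2 of 10 called. Of all tested genes 1.16% were called lower and 0.249% higher. Higher calls made up 17.7%, or 42.1% without the filter on low counts and 34.3% with the replicate block. The Dusp6 difference did not pass when the fit held the 4 compared groups alone (-1.25, edgeR adjusted p = 0.0697). Fosl1 had a difference of -0.84 (SE 0.235, edgeR adjusted p = 0.0659). With the replicate number as a block, which pairs the WT libraries here, it passed (-0.83, edgeR adjusted p = 0.00016), which made 3 of 10. It passed as well with no filter on low counts (-0.83, edgeR adjusted p = 0.000258), when scaled by library size alone (-0.90, edgeR adjusted p = 0.0195) and by DESeq2's Wald test (-0.82, adjusted p = 0.0321), and without WT halofuginone replicate 3 (-1.05), WT halofuginone with thapsigargin replicate 2 (-0.97) or PERK -/- halofuginone replicate 3 (-0.91), with edgeR adjusted p of 0.0157 to 0.0462. Egr1 had a difference of -0.33 (SE 0.294) and Fos one of 0.06 (SE 0.531), with the sign of the Fos value depending on which libraries were kept.

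Halofuginone alone raised the early transcription factor genes strongly in WT cells. Against DMSO, 8 of the 10 rose and 1 fell, where 34.7% of all tested genes were called higher and 33.4% lower; the median was 1.59, beside 0.00 over all genes. Scaling by library size alone moved the median of all genes to -0.11. Fos rose from 1.77, 1.77 and 1.11 CPM to 11.1, 10.7 and 20.6 CPM (log2 fold change 3.18, SE 0.380, edgeR adjusted p = 1.04e-08). Egr1 rose 8.30-fold (3.05, SE 0.222, edgeR adjusted p = 2.35e-13), and its highest library, replicate 3 at 567 CPM, was far above the other two. Fosl1 rose from 108, 74.1 and 132 CPM to 404, 422 and 603 CPM (2.19, SE 0.173), and Jun rose 2.83-fold. No treated library overlapped a control library in these 4 genes.

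Among the feedback genes the response to halofuginone was uneven. Dusp5 rose from 57.7, 44.0 and 57.4 CPM to 249, 220 and 199 CPM (log2 fold change 2.07, SE 0.162, edgeR adjusted p = 1.29e-12). Spry2 rose from 36.9, 32.0 and 33.3 CPM to 113, 104 and 114 CPM (1.69, SE 0.151, edgeR adjusted p = 2.15e-11). Dusp4 (1.04, SE 0.205) and Spry4 (1.05, SE 0.347, edgeR adjusted p = 0.0085) rose about as much as each other, and the Spry4 call was lost without WT DMSO replicate 2 (0.85, edgeR adjusted p = 0.0566). Dusp6 was at 68.4, 60.1 and 66.1 CPM with DMSO and at 72.6, 66.4 and 69.0 CPM with halofuginone. These groups overlapped, and the log2 fold change was 0.10 (SE 0.166, edgeR adjusted p = 0.622), or -0.03 when scaled by library size alone. Etv4 was called lower (-0.31, SE 0.134, edgeR adjusted p = 0.0442) although its groups overlapped. That call was lost without WT halofuginone replicate 2 (-0.20, edgeR adjusted p = 0.221) or WT DMSO replicate 3 (-0.24, edgeR adjusted p = 0.153), by DESeq2's Wald test (-0.28, adjusted p = 0.0708) and when the fit held only the compared groups (-0.30, edgeR adjusted p = 0.0882).

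When thapsigargin was present, halofuginone raised Dusp6 too. In WT cells Dusp6 was at 20.0, 14.0 and 17.9 CPM with thapsigargin and at 66.9, 41.5 and 68.3 CPM with both compounds, a 3.40-fold rise (log2 fold change 1.77, SE 0.174, edgeR adjusted p = 1.34e-09). In all, 8 of the 10 genes rose and none fell, beside 22.8% of all tested genes called higher and 22.5% lower, with a median of 1.91 beside 0.00. Egr1 rose by 3.06, Dusp5 by 2.43, Fos by 2.43, Jun by 2.38, Spry2 by 2.05, Fosl1 by 1.76 and Dusp4 by 1.5 on the log2 scale. Etv4 (0.24, SE 0.135, edgeR adjusted p = 0.147) and Spry4 (0.66, SE 0.359, edgeR adjusted p = 0.137) did not pass. Both passed with the replicate number as a block (0.24, edgeR adjusted p = 0.0269, and 0.69, edgeR adjusted p = 0.0438), which made 10 of 10. Etv4 also passed without WT halofuginone with thapsigargin replicate 2 (0.37), and Spry4 without WT thapsigargin replicate 3 (1.00).

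In PERK -/- cells the halofuginone comparisons share the DMSO or thapsigargin libraries used in choosing the genes, so they are values only. Signs and overlaps are counted here for the 10 genes, while the shares of all tested genes are of edgeR calls, an unlike measure. Over DMSO, 9 of the 10 log2 fold changes were positive, from 0.20 for Dusp4 to 1.48 for Spry4, and Etv4 was at -0.35; over all tested genes, 21.2% were called higher and 21.0% lower. Egr1 was at 134, 81.1 and 96.5 CPM, against 356, 277 and 567 CPM in WT cells given halofuginone. Over thapsigargin, all 10 genes were higher in every PERK -/- library given halofuginone as well, where 25.2% of all tested genes were called higher and 27.5% lower. Dusp6 had the largest of these differences, 2.78 (SE 0.198), then Egr1 with 2.70 (SE 0.247). With both compounds Dusp6 stood at 14.3 to 19.4 CPM, within the 14.0 to 20.0 CPM range of WT cells given thapsigargin alone, and below the 35.2 to 40.1 CPM of PERK -/- DMSO libraries.

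**Figure D3:**
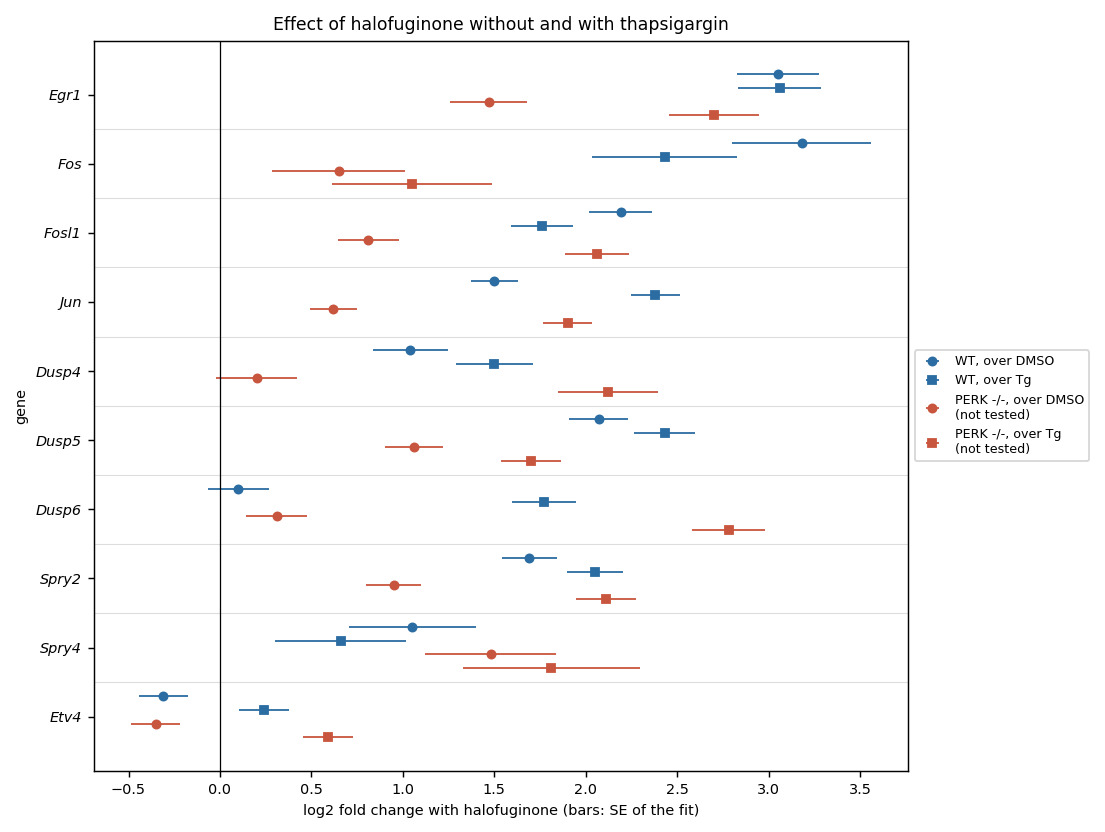
Log2 fold change with halofuginone for each gene, over DMSO (circles) and over thapsigargin (squares), in WT (blue) and PERK -/- (red) libraries; bars are the SE of the fit. For Dusp6 the WT circle lies at 0.10 and the WT square at 1.77, while for Egr1 both WT marks lie near 3; the PERK -/- marks are values with no test.

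BtdCPU alone changed few of the genes in WT cells. Dusp4 rose from 30.3, 29.5 and 37.1 CPM to 73.2, 37.6 and 72.3 CPM (log2 fold change 0.92, SE 0.205, edgeR adjusted p = 0.00144), with no overlap, although replicate 2 lay close to the controls. Spry4 rose from 1.97, 1.15 and 1.73 CPM to 3.86, 2.18 and 4.24 CPM (1.08, SE 0.347, edgeR adjusted p = 0.0234), and Jun fell from 110, 87.6 and 109 CPM to 53.9, 73.0 and 57.7 CPM (-0.73, SE 0.129, edgeR adjusted p = 0.000102). Beside these 2 of 10 higher and 1 lower, 12.9% of all tested genes were called higher and 9.31% lower; 58.1% of calls were higher, or 45.1% when scaled by library size alone. The Spry4 call was lost without WT BtdCPU replicate 1 (0.98) or 3 (0.89) or WT DMSO replicate 2 (0.88), with edgeR adjusted p of 0.103 to 0.133. When the fit held just the 2 compared groups, Jun alone of the 10 passed, and the edgeR adjusted p was 0.0591 for Dusp4 and 0.0749 for Spry4. Fosl1 had a log2 fold change of 0.28 (edgeR adjusted p = 0.236) and passed without WT DMSO replicate 3 (0.48, edgeR adjusted p = 0.0459), and Egr1 was called lower with no filter on low counts (-0.37, edgeR adjusted p = 0.0318). In PERK -/- cells the corresponding values, given with no test, were 1.18 (SE 0.219) for Dusp4, 0.37 (SE 0.369) for Spry4 and -0.10 (SE 0.128) for Jun.

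Added to thapsigargin, BtdCPU raised a few of the genes in WT cells, Egr1 the most. In WT cells Egr1 was at 11.8, 10 and 8.44 CPM with thapsigargin and at 57.8, 38.8 and 53.7 CPM with both compounds, overlapping the DMSO libraries at 42.9 to 57.1 CPM (log2 fold change 2.31, SE 0.224, edgeR adjusted p = 1.02e-07). Jun (0.75, SE 0.129, edgeR adjusted p = 0.00161) and Dusp4 (0.84, SE 0.210, edgeR adjusted p = 0.0293) also rose, so 3 of the 10 were called higher and none lower. This compares with 1.29% of all tested genes called higher and 1.02% lower; 55.9% of calls were higher, or 80.7% when scaled by library size alone. Dusp4 groups overlapped, and its call was lost without any one of WT BtdCPU with thapsigargin replicate 1 (0.67) or 3 (0.70), or WT thapsigargin replicate 1 (0.76), 2 (0.81) or 3 (0.92), with edgeR adjusted p of 0.0528 to 0.248, and when the fit held only the compared groups (0.83, edgeR adjusted p = 0.185). Fosl1 (0.55, edgeR adjusted p = 0.0742) and Dusp5 (0.43, edgeR adjusted p = 0.149) passed without WT BtdCPU with thapsigargin replicate 2 (0.68 and 0.60) and with no filter on low counts (0.53, edgeR adjusted p = 0.000995, and 0.41, edgeR adjusted p = 0.0393). Both passed with the replicate number as a block (Fosl1 0.53, edgeR adjusted p = 0.000357; Dusp5 0.42, edgeR adjusted p = 0.00627), which made 5 of 10. Dusp6 was at 21.3, 13.5 and 13.8 CPM with both compounds, among the thapsigargin libraries (-0.10, SE 0.173, edgeR adjusted p = 0.825).

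In PERK -/- cells, where these values carry no test, Egr1 was at 1.82, 2.40 and 2.81 CPM with both compounds and at 2.87, 2.37 and 2.75 CPM with thapsigargin, and the groups overlapped (log2 fold change -0.19, SE 0.275). Dusp4 was at 9.66, 7.68 and 8.08 CPM with both compounds and at 1.06, 1.04 and 0.908 CPM with thapsigargin (3.08, SE 0.267), above the 5.95 to 6.51 CPM of the PERK -/- DMSO libraries. Etv4 (0.86, SE 0.137), Dusp5 (0.72, SE 0.166) and Dusp6 (0.57, SE 0.208) were among 6 of the 10 genes higher in every library. By edgeR, 17.3% of all tested genes were called higher and 18.3% lower, which is not the same measure. Groups that do not overlap were counted for the 10 genes only. The PERK -/- value minus the WT value was 2.24 (SE 0.340) for Dusp4 and -2.50 (SE 0.351) for Egr1. With DMSO alone the genotypes differed most in Dusp4, with 5.95 to 6.51 CPM in PERK -/- DMSO libraries and 29.5 to 37.1 CPM in WT ones (log2 fold change -2.37, SE 0.221). Dusp6 (-0.80, SE 0.168), Spry2 (-0.61, SE 0.150), Etv4 (-0.46, SE 0.134) and Egr1 (-0.36, SE 0.209) were also lower in every PERK -/- DMSO library, and Dusp5 was higher in every one (0.54, SE 0.157). Differences between the untreated genotypes were common, with 24.9% of all tested genes called lower and 24.6% higher by edgeR.

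The order of the 12 groups showed where the genes part. All but Spry4 and Etv4 had their highest mean in WT halofuginone libraries, and Egr1 there (400 ± 150 CPM, SD, n = 3) lay clear of the next group, PERK -/- halofuginone (104 ± 27.2 CPM, SD, n = 3). That group overlapped WT halofuginone with thapsigargin (83.9 ± 21.7 CPM, SD, n = 3). The 7 highest groups of Dusp6, from WT halofuginone (69.3 ± 3.15 CPM, SD, n = 3) to PERK -/- BtdCPU (35.4 ± 1.6 CPM, SD, n = 3), each overlapped the next, although the first and the last of them did not overlap. Below them came WT thapsigargin (17.3 ± 3.06 CPM), PERK -/- halofuginone with thapsigargin (16.6 ± 2.61 CPM) and WT BtdCPU with thapsigargin (16.2 ± 4.43 CPM), which overlapped. The lowest, PERK -/- BtdCPU with thapsigargin (3.57 ± 0.322 CPM) and PERK -/- thapsigargin (2.41 ± 0.166 CPM), did not overlap anything (SD, n = 3 in each). Etv4 was highest in WT DMSO libraries (157 ± 12.6 CPM, SD, n = 3), and its 11 highest groups formed an unbroken run of overlapping neighbours. In all 10 genes the lowest group was 1 of the 2 PERK -/- groups with thapsigargin and without halofuginone. Per kilobase of exon, on GENCODE annotation, Fosl1 (51.6 CPM per kb) and Etv4 (50.6) had the highest level in WT DMSO libraries, Dusp5 (21.4) and Dusp6 (20.7) were close, and Fos (0.659) and Spry4 (0.341) the lowest.

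Across the 12 group means of log2 CPM, the genes varied together to different degrees, as a description over groups that share libraries' genotype and treatment. Egr1 had Pearson r of 0.960 with Fosl1, 0.957 with Spry2, 0.888 with Dusp6, 0.685 with Etv4 and 0.681 with Dusp4. Within the 6 WT groups, Dusp5 and Spry2 were at r = 0.996, while Fosl1 and Etv4 were at 0.00561. Within the 6 PERK -/- groups that last pair was at 0.766, and Fosl1 and Dusp6 were at 0.989, against 0.529 in WT. Of genes outside the set, the nearest to Dusp6 were Gm34921 (r = 0.992), Pmepa1 (0.991) and Upp1 (0.967). Gm34921 overlaps Dusp6 in the RefSeq annotation and was at 0.145 to 5.73 CPM, so the same reads may be counted in both. The nearest to Egr1 were Errfi1 (0.967), Unc13c (0.963) and Phlda1 (0.961), and to Fosl1 Phlda1 (0.983), Unc13c (0.975) and Mtmr10 (0.973). Fosl1 overlaps Ccdc85b, whose group means ran from 35.3 to 81.4 CPM.

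Other genes of the pathway were counted from lists assembled from general knowledge with earlier results of these data known. Of 16 other ERK feedback and output genes, 13 fell and none rose when thapsigargin was added to BtdCPU in PERK -/- cells (edgeR adjusted p below 0.05), with a median log2 fold change of -1.37 beside 0.00 over all tested genes, of which 7.48% were called lower. Over halofuginone, 11 of the 16 fell in PERK -/- cells (median -1.02), beside 3.16% of all tested genes. In WT cells 9 fell and 1 rose over DMSO (median -0.68), 8 fell and 1 rose over BtdCPU, and 5 fell over halofuginone, where 22.7%, 19.5% and 5.83% of all tested genes were called lower. Phlda1 was at 115 to 129 CPM in PERK -/- BtdCPU libraries and at 16.0 to 19.6 CPM with thapsigargin added (-2.74, SE 0.190, edgeR adjusted p = 3.07e-12). Ccnd1, the gene of cyclin D1, which drives entry into the cell cycle, fell by 2.18 (SE 0.191, edgeR adjusted p = 4.86e-10). Over halofuginone, Errfi1, an inhibitor of the EGF receptor, fell by 2.15 (SE 0.121) in PERK -/- cells and by 1.29 (SE 0.116) in WT cells. Etv5, the close relative of Etv4, differed between genotypes there (-1.75, SE 0.276, edgeR adjusted p = 0.000775). Lif, a cytokine gene on the same list, moved the other way in WT cells, where it rose by 1.26 with thapsigargin over DMSO (SE 0.154, edgeR adjusted p = 5.48e-08) and by 1.56 over BtdCPU (SE 0.148, edgeR adjusted p = 8.15e-10).

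Of 31 other immediate early genes, 20 differed between genotypes in their response to thapsigargin over BtdCPU, and 1 did over halofuginone. Of all tested genes 24.7% and 1.41% did. With thapsigargin over BtdCPU, 19 fell and 1 rose in PERK -/- cells, beside 7.48% of all tested genes lower and 9.34% higher, while 6 fell and 13 rose in WT cells, beside 19.5% lower and 20.9% higher. The difference between genotypes was below 0 for 18 of the 31 and above 0 for 2 at an edgeR adjusted p below 0.05, with a median of -0.86 beside -0.01 over all tested genes, of which 12.3% were called below 0 and 12.4% above. Over halofuginone, 13 fell and 2 rose in PERK -/- cells (median -0.54), beside 3.16% of all tested genes lower and 3.27% higher, and 11 fell and 2 rose in WT cells (median -0.38), beside 5.83% lower and 8.13% higher. There the difference between genotypes passed the test below 0 in 1 of the 31 and above 0 in none, with a median of -0.01. Over all tested genes, 1.16% were called below 0 and 0.249% above. Egr2, a relative of Egr1, was at 1.74 to 1.90 CPM in PERK -/- BtdCPU libraries and at 0 to 0.107 CPM (0 to 4 counts) with thapsigargin added. Egr3 went from a range of 6.42 to 7.55 CPM to one of 0.327 to 0.535 CPM (log2 fold change -4.11, SE 0.304, edgeR adjusted p = 1.26e-11). In WT cells given thapsigargin over DMSO, 11 rose and 10 fell, beside 24.9% of all tested genes higher and 22.7% lower. Klf4, a zinc finger transcription factor gene, rose from a range of 18.2 to 31.3 CPM to one of 127 to 154 CPM (2.51, SE 0.199), while Egr2 fell by 2.28 (SE 0.298). Halofuginone raised 29 of the 31 in WT cells and lowered none (median 2.03), beside 34.7% of all tested genes higher and 33.4% lower. Over thapsigargin it raised 28 and lowered none (median 1.66), beside 22.8% higher and 22.5% lower.

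In the thapsigargin comparisons given here, the counts of genes called in the relay itself lay near the shares over all tested genes. The list also holds Map2k5, Mapk7, Mapk8, Mapk9 and Mapk14, which belong to other MAP kinase pathways. Of 31 ERK cascade genes, 2 rose and 4 fell with thapsigargin over BtdCPU in PERK -/- cells (median 0.08), beside 9.34% of all tested genes higher and 7.48% lower. Over halofuginone none rose and 2 fell (median -0.04), beside 3.27% higher and 3.16% lower. In WT cells 7 rose and 9 fell with thapsigargin over DMSO (median 0.00), beside 24.9% higher and 22.7% lower. Halofuginone in WT cells raised 13 and lowered 13 over DMSO, beside 34.7% higher and 33.4% lower. Over thapsigargin it raised 12 and lowered 8, beside 22.8% higher and 22.5% lower. Rasa1, a GTPase-activating protein that switches Ras off, fell in both genotypes: by 0.93 in WT cells over DMSO (SE 0.110), by 0.64 in WT cells over halofuginone (SE 0.109), and by 0.75 and 0.55 in PERK -/- cells over BtdCPU and halofuginone (SE 0.109 in each). Of 16 growth factor ligand genes, 3 rose and 7 fell in PERK -/- cells with thapsigargin over BtdCPU, where 9.34% of all tested genes rose and 7.48% fell. Hbegf, a ligand of the EGF receptor, was among those that fell (-2.16, SE 0.197, edgeR adjusted p = 9e-10). Halofuginone raised 8 of the 16 ligand genes and lowered 3 in WT cells, beside 34.7% of all tested genes higher and 33.4% lower. Areg, another EGF receptor ligand, was among the highest (4.88, SE 0.294). Of 13 receptor genes, 2 rose and 2 fell in PERK -/- cells with thapsigargin over BtdCPU, and none rose and 3 fell over halofuginone, against the same shares of all genes as for the cascade. Of 5 phosphatase genes on a list for JNK and p38, 2 rose and none fell in PERK -/- cells with thapsigargin over BtdCPU, beside 9.34% of all tested genes higher and 7.48% lower. In WT cells 3 rose and 1 fell over DMSO, beside 24.9% of all tested genes higher and 22.7% lower. Dusp8 was higher by 1.68 (SE 0.227, edgeR adjusted p = 3.29e-07) and Dusp10 lower (-0.97, SE 0.147, edgeR adjusted p = 2.1e-06). Dusp10 also fell in WT cells over BtdCPU (-0.64, SE 0.145) and over halofuginone (-0.86, SE 0.142). These genes were not tested against the ERK phosphatases.

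**Figure D4:**
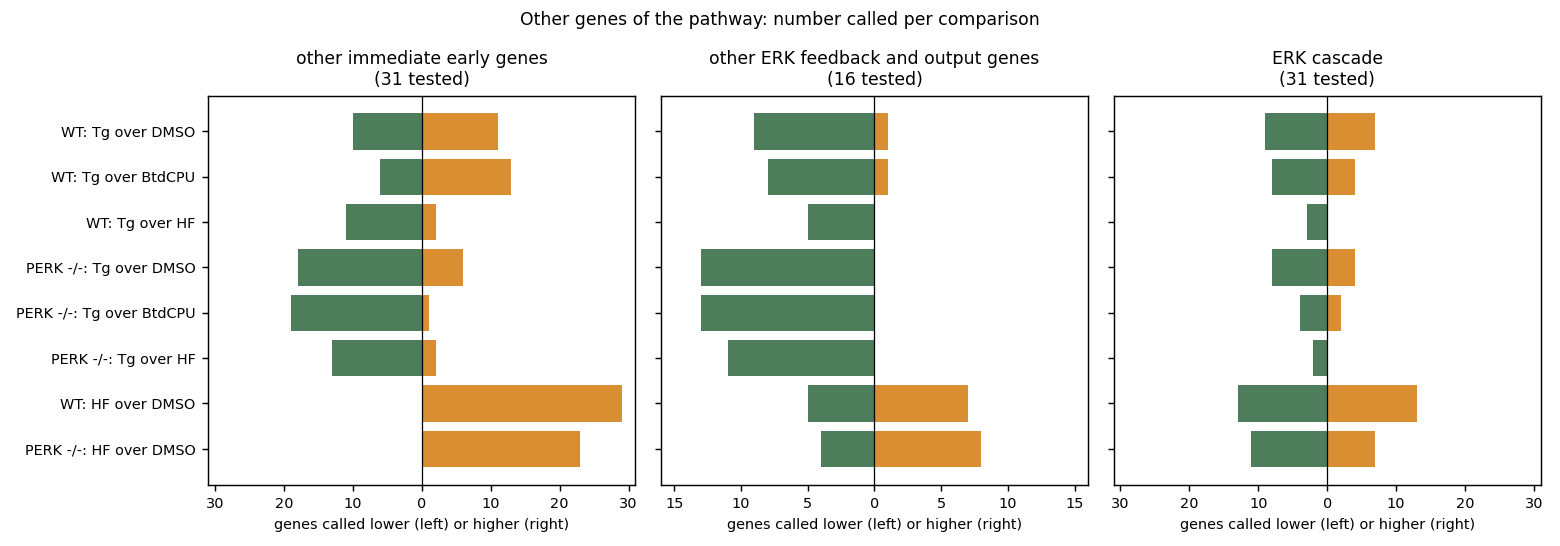
Number of genes called higher (orange, right) or lower (green, left) by edgeR at an adjusted p below 0.05 in 8 comparisons, for 31 other immediate early genes, 16 other ERK feedback and output genes and 31 ERK cascade genes. For the feedback genes the bars with thapsigargin point mainly left in both genotypes (13 of 16 lower over BtdCPU in PERK -/- cells), while the bars of the cascade point both ways over DMSO and BtdCPU. The PERK -/- bars over DMSO use libraries from the choice of genes, so they are a description and not a test.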

How the data were processed

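RNA-seq was read from 1 table in which the authors deposited estimated counts per gene for all 36 libraries. Per the submitters' processing notes, the build was GRCm39 and DESeq was among the tools, with no role given; aligner, counter, annotation and use of strand are not given in the sources used here. Of the deposited estimated counts 50.6% are 0.025, read as 0, and 2.69% of the others are not whole. From the 36930 entries, 27 named by dates (0.206% to 0.278% of a library) were left out, entries of 39 repeated symbols were summed, and counts were rounded.

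The gene tests used edgeR 4.0.16 (R 4.3.3): filterByExpr by group (16065 genes), TMM scaling, and a robust quasi-likelihood fit of 12 group means on 36 libraries (24 residual degrees of freedom). There were 15 comparisons of 2 groups and 7 differences between genotypes, with Benjamini-Hochberg adjustment over all tested genes within each and a threshold of 0.05. CPM is edgeR's value on TMM-scaled library sizes, and each SE is the log2 fold change divided by the root of its F. A count of 0 allows up to 3 counts, for counting error only. The members and gene lists were chosen with earlier results of these data known. Genes named from a list are at most the 2 largest rises and 2 largest falls per comparison among called genes whose average log2 CPM is 0 or more. Nearest genes are the 3 highest Pearson r over 12 group means of log2 CPM (prior count 2).

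Replicate numbers were read as pairing libraries where all 3 correlations of same-numbered deviations exceeded 0.1: WT BtdCPU with thapsigargin against thapsigargin (0.159, 0.312 and 0.337), WT halofuginone with thapsigargin against thapsigargin (0.162, 0.201 and 0.308) and against halofuginone (0.218, 0.308 and 0.502). Alternatives were DESeq2 1.42.0 size factors or its Wald test, library size alone, no filter, only the compared groups, the replicate block within genotype, and leaving out each library. The test was checked on simulated data.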

Additional observations from a re-analysis of the deposited data

Results flagged for a closer look

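The response to thapsigargin differed between the genotypes, by the test of the difference itself, in 9 cases (edgeR adjusted p below 0.05). Over BtdCPU, the log2 response of PERK -/- cells minus that of WT cells was -3.88 for Egr1, -2.83 for Fos, -2.67 for Fosl1, -2.31 for Jun, -1.66 for Dusp6, -1.52 for Dusp5 and -1.16 for Spry2. The WT responses of Egr1 (0.42), Fos (0.70), Fosl1 (0.11) and Jun (0.38) over BtdCPU were above 0, while those of Dusp6 (-1.64), Dusp5 (-0.98) and Spry2 (-0.71) were below it, and all 7 fell in PERK -/- cells. Over halofuginone, the difference was -1.28 for Dusp5 and -1.24 for Dusp6. Loss of PERK and other differences between the WT and PERK -/- cells cannot be told apart in these values.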

How the results depend on the processing

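With 3 libraries a group, precision is set by their spread, and genes near 1 CPM (Fos, Spry4) rest on few counts. Of the 10 genes, those called in WT cells given BtdCPU against DMSO numbered 1 when the fit held the compared groups alone (3 as reported). In WT BtdCPU with thapsigargin against thapsigargin they numbered 5 with no filter and 5 with the replicate block (3 as reported), and 2 to 5 when a library was left out. For the genotype difference over halofuginone they numbered 1 with only the compared groups (2 as reported). The cause of each shift was not tested, beyond the smaller number of libraries in fits of the compared groups.

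Over all tested genes, with the replicate block the calls were 5534 for WT BtdCPU against DMSO (3571 as reported), 2079 for WT BtdCPU with thapsigargin against thapsigargin (372), 3929 for WT halofuginone with thapsigargin against halofuginone (2242), 4318 for PERK -/- BtdCPU with thapsigargin against BtdCPU (2701), 1966 for PERK -/- halofuginone with thapsigargin against halofuginone (1033) and 962 for the genotype difference over halofuginone (226). In the 3 pairs of groups that met the rule for pairing, the block changed no call of the 10 genes other than those given with the results. Where groups did not meet that rule, the block added Dusp4 with thapsigargin over halofuginone in PERK -/- cells (edgeR adjusted p = 0.00436), Dusp4 and Spry4 in the genotype difference over BtdCPU (0.0284 and 0.0158), Fos with thapsigargin in WT cells (0.048) and Fosl1 with BtdCPU in WT cells (0.0112). Some pairing may be present there too: for WT BtdCPU against DMSO the correlations were 0.0682, 0.254 and 0.287. With only the compared groups the calls were, in the same order without the fifth, 835, 23, 770, 4277 and 59. With no filter they were 813 for WT BtdCPU with thapsigargin against thapsigargin and 401 for the genotype difference over halofuginone, and by DESeq2's Wald test 866 and 414. Leaving out a library gave 1780 to 5062 calls for WT BtdCPU against DMSO, 41 to 331 for WT BtdCPU with thapsigargin against thapsigargin, 1374 to 2220 for WT halofuginone with thapsigargin against halofuginone and 98 to 376 for the genotype difference over halofuginone.

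Values that changed sign were near 0 and not called. Scaled by library size alone, Dusp6 with halofuginone over DMSO in WT cells was -0.03 (0.10 as reported) and Fos in the genotype difference over halofuginone 0.00 (0.06). When a library was left out, Dusp6 with halofuginone in WT cells ran from 0.00 to 0.13, Fosl1 with thapsigargin in WT cells from -0.35 to 0.05, Spry2 with BtdCPU in WT cells from -0.12 to 0.11, and Fosl1 with thapsigargin over BtdCPU in WT cells from -0.06 to 0.22. With BtdCPU over thapsigargin in WT cells, Dusp6 ran from -0.35 to 0.02 and Spry4 from -0.18 to 0.43. The genotype difference of Etv4 over BtdCPU ran from -0.16 to 0.01, and those of Dusp4 and Fos over halofuginone from -0.06 to 0.24 and from -0.32 to 0.22.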
